A study of Mus musculus with 8 samples.

Results

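The regions described here were held by all 5 deposited peak lists and lay more than 1 kb from both ends of every protein-coding gene. Peaks of the 5 lists were merged where they overlapped by at least 1 bp, which gave 138775 regions, 138623 of them on assembled chromosomes. Of the latter, 13489 (9.73%) overlapped a peak of every list. Among the 122063 regions more than 1 kb from gene ends, called distal below, 4942 were held by all 5 lists, which is 4.05%. Of these 4942, 2614 lay inside a gene body (52.9%, 95% interval 51.5 to 54.3) and 2328 lay between genes. The remaining 8547 regions of all 5 lists overlapped or lay within 1 kb of a gene end. The regions were chosen by the presence of a called peak in each list, so "held by all 5" is the rule and not a finding, and it says nothing about other tissues or cells. All intervals are exact Clopper-Pearson intervals. They cover counting error only, and neighbouring regions are not independent.

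The study measured open chromatin, as DNA that a transposase can cut (ATAC-seq), in primary mouse liver cells of a model that lacks the Rb gene family (Rb1, Rbl1 and Rbl2). Cells came from digested liver or visible lesions and were sorted for YFP, a mark of Cre recombination at floxed alleles that all groups share, and by EpCAM and Thy1. The labels give 8 samples in 5 groups: EpCAM-high CK19 (2 samples), EpCAM-high Sox9 (1), Thy1+ CK19 (2), Thy1+ Sox9 (1) and EpCAM-negative (2). Of the lists, EpCAM-high CK19 comes first below and EpCAM-high Sox9 second, followed by Prog-like CK19, then Prog-like Sox9, and last Tumor Sox9, and runs of 5 values keep this order. The names Prog-like and Tumor match no sample title, so those lists were tied to no group. The labels do not say what CK19 and Sox9 stand for in the names, which promoter drives Cre, or the age, sex or number of animals, and no sample of cells without the deletions was used. Lists held 56932, 59454, 71375, 67855 and 39644 peaks, with 1 list per condition. Replicate error is therefore not known, and conditions were not tested against each other. Read depth is unknown.

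Open chromatin away from genes usually contains enhancers, which bind cell-type factors and act on promoters at a distance, or insulator sites bound by CTCF. Open sites shared by many cell types more often contain promoters, and these tend to be rich in CpG. Many genes have several promoters, and small RNA genes such as those of tRNAs carry their own, transcribed by RNA polymerase III.

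The name "distal" held only in part. Gene ends were those of the whole gene, and the RefSeq start table, which lists windows from 250 bases before to 50 bases after transcription starts, placed many starts inside genes and between them. On the chromosomes with listed windows 1050 of 4736 members (22.2%, 21.0 to 23.4) overlapped a start window, against 2006 of 112569 distal regions of 1 to 4 lists, which is 1.78%. Median widths were 933 bp for members and 254 to 713 bp for regions of 1 to 4 lists. Wider regions meet a window more easily, and the part of width in these shares was not tested. Below are 6 of the start windows in members, 300 bases each on GRCm38.p6, the build that mm10 names. They are printed as RefSeq gives them and 5′ to 3′ along the gene. The first 3 and Abhd18 are the protein-coding windows whose regions had the highest rank of fold enrichment in their weakest list. Gm26567 is the lncRNA window that leads by the same measure among regions without a protein-coding start window. The 1110004F10Rik region, which ranks higher, also holds a start window of the non-coding gene 1700003G18Rik. Wapl, the gene of the factor that releases cohesin from DNA, is the leading window among genes of the lists fixed for this work. Capitals mark, on either strand, an 11-letter core of the motif of ZNF143, a zinc-finger protein known from promoters (mouse gene Zfp143), with 2 of the 11 positions left free. That motif was added after these windows had been read.
1110004F10Rik: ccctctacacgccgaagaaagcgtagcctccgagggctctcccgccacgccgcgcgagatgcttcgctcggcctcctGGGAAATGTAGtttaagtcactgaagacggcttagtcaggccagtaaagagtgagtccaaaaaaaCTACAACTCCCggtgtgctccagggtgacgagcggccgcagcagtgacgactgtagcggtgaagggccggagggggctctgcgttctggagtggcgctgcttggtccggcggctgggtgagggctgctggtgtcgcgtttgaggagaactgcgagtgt
Snapc3: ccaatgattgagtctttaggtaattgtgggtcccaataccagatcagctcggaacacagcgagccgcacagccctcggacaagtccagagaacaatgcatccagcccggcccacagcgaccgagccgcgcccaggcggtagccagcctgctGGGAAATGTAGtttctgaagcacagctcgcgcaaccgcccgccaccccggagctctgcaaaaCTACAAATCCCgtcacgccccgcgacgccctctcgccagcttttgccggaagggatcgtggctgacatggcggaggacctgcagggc
9530077C05Rik: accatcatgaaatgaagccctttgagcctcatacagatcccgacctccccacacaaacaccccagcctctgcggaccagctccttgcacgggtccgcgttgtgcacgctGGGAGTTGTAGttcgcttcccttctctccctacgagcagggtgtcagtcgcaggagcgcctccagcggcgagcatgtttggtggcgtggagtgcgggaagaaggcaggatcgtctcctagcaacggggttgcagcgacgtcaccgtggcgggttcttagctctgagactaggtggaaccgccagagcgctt
Abhd18: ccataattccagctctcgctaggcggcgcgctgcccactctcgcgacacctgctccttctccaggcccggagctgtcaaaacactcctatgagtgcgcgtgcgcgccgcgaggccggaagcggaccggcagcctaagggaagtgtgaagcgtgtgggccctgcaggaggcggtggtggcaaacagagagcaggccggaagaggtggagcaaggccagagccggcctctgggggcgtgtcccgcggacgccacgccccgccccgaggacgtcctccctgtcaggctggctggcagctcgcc
Wapl: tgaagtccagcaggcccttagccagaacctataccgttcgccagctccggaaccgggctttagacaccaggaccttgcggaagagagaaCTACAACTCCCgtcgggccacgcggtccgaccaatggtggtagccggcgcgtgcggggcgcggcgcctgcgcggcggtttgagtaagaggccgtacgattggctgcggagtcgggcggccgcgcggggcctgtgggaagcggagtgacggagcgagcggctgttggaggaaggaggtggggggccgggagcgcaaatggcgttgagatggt
Gm26567: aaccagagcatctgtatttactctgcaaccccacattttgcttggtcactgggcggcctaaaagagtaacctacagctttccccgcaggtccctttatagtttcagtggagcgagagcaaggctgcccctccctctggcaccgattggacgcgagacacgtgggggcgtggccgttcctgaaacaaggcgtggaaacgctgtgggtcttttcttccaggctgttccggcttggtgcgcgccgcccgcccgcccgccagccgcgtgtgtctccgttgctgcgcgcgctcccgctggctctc

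All 6 windows are on the plus strand: chr7:116093130-116093429 (1110004F10Rik), chr4:83417474-83417773 (Snapc3), chr9:22411297-22411596 (9530077C05Rik), chr3:40894009-40894308 (Abhd18), chr14:34673678-34673977 (Wapl) and chr9:88599390-88599689 (Gm26567). The 1110004F10Rik and Snapc3 windows each hold 2 matches, 1 on each strand. Snapc3 encodes a subunit of the complex that starts transcription of small nuclear RNAs. The Abhd18 and Gm26567 windows hold no match to any of the 5 motifs searched. GC content was between 60.7% (9530077C05Rik) and 69.3% (Abhd18), and each window held 22 to 35 CpG.

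The region around the 1110004F10Rik window had folds of 22.4, 23.5, 21.6, 25.6 and 13.9, and lay 11388 bp from the nearest end of the gene. The Snapc3 region had folds of 17.9, 21.6, 22.1, 25.5 and 12.9, and its start lies 2013 bp inside the gene. For Wapl the folds were 13.0, 15.2, 16.6, 20.3 and 10.8. Each of the 3 regions stood in the top 10% of peaks of every list, and the 5 summits lay within 61 bp of each other at most.

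Chromosome 18 has no entry in the start table, and its starts were not analysed here. On the other chromosomes, starts of protein-coding genes were overlapped by 762 members (16.1%, 15.1 to 17.2) and starts of lncRNA genes by 358 (7.56%, 6.82 to 8.35), with 70 overlapping both kinds. In distal regions of 4 lists the shares were 3.23% and 3.49%, in those of 1 list 0.273% and 0.659%. The protein-coding share therefore rose more between 4 and 5 lists than the lncRNA share did. Every protein-coding start in a member lay inside a gene, as the rule requires. Inside genes 823 of 2505 members (32.9%) overlapped a start window. Between genes 227 of 2231 did (10.2%), at lncRNA starts only. Counting starts within 1 kb gave 1156 members (24.4%), against 393 of 4583 regions of 4 lists (8.58%). For comparison, 81.3% of gene-end regions of all 5 lists overlapped a start window. Away from every listed start and from the ends of every annotated gene, non-coding genes included, lay 3227 of the 4736 members.

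**Figure D1:**
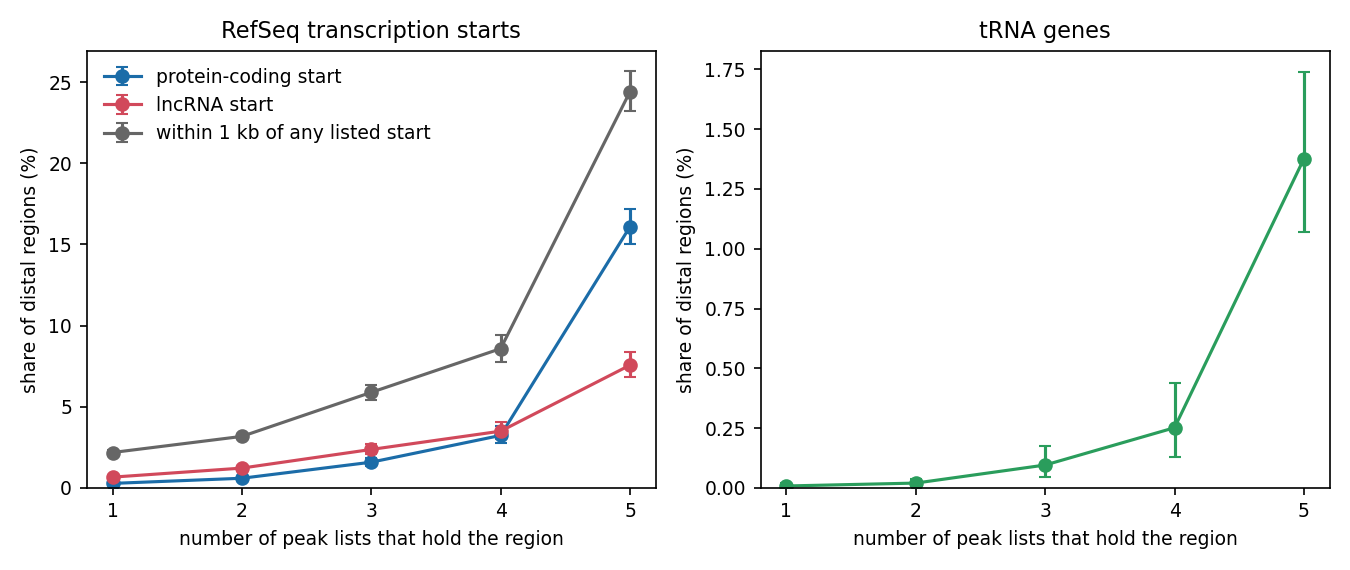
Share of distal regions, in percent, that overlap a RefSeq start window of a protein-coding or lncRNA gene or lie within 1 kb of any listed start (left), or overlap a tRNA gene (right), by the number of peak lists that hold the region. Bars are exact 95% intervals; regions of 5 lists stand at 16.1%, 7.56%, 24.4% and 1.38%.

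The start windows inside members resembled those at gene ends in composition. Members overlapped 1337 of the 32851 windows (4.07%), from 1117 genes. Their median GC content was 60.7% and their median CpG number 19, against 52.7% and 7 over all windows. Windows of gene-end regions of all 5 lists had 62.7% and 23, and windows in distal regions of 1 to 4 lists 51.0% and 5. Within members, protein-coding windows had a median of 21 CpG and lncRNA windows 13. The sets of windows differ in their mix of gene types, and the part of that mix in these medians was not tested.

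Motif letters were counted on both strands in the same windows, and divergent genes can share a window's bases. A 12-letter core of the CTCF motif with 4 free positions stood in 4.04% of member windows, 2.94% of gene-end windows, 3.57% (2.85 to 4.41) of windows in distal regions of 1 to 4 lists and 2.43% of all windows. Within members it stood in 2.84% of protein-coding and 6.65% (4.46 to 9.47) of lncRNA windows. Shares by gene type were not counted outside members, so neither value has a baseline of its own kind. ETS letters, CCGGAAGT, stood in 6.21% of member windows, 10.04% of gene-end windows and 1.39% of windows in distal regions of 1 to 4 lists. The 10-letter palindrome of NRF1 stood in 1.496%, 2.70% and 0.0871%, in the same order. The ZNF143 core stood in 3.37% (2.47 to 4.48), 5.46% and 0.479% in that order, and in 2.00% of all windows. AP-1 letters, TGANTCA, went the other way, with 5.76% in member windows, 3.70% in gene-end windows and 13.3% in windows of distal regions of 1 to 4 lists. For each of these 5 motifs except the CTCF core, the member share lay between that of gene-end windows and that of less widely held distal regions. The ZNF143 core was added after some member windows had been read, so its share in members is not independent of that choice. A match is only a run of letters, and regions away from listed starts were not searched.

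Genes of small RNAs were the other recurrent feature. A tRNA gene was overlapped by 68 members (1.38%, 1.07 to 1.74), 65 of them between genes and 26 holding 2 or more tRNA genes. Among distal regions of 1 to 4 lists 36 of 117121 overlapped one, which is 0.0307%, and among those of 4 lists 12 (0.251%). Members covered 106 of the 408 annotated tRNA genes. Gene-end regions of all 5 lists covered 39. Chromosome 13 held 16 of the 68 and chromosome 11 held 9. The highest-ranking tRNA region, chr5:149228865-149229631 at n-TNgtt14, had folds of 17.2, 18.4, 19.6, 21.2 and 11.6. The region at n-TEctc9, chr10:30810247-30811368, had folds of 16.5, 17.0, 22.7, 21.7 and 10.1. Regions with a tRNA gene had a median width of 1290.5 bp, against 933 bp over all members. Wider regions meet a gene more easily, and the part of width in the tRNA shares was not tested. tRNA genes occur in near-identical copies, and how reads with several placements were treated is not given in the sources used here.

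Small nuclear RNA genes were overlapped by 21 members (0.425%, 0.263 to 0.649), against 2 regions of 4 lists (0.0419%). Among them was Rn7sk, the gene of the 7SK RNA that holds back transcription elongation, on chromosome 9, with folds of 10.98, 9.57, 15.2, 14.3 and 8.61. Rnu11, the U11 RNA of the minor spliceosome, had folds of 8.47, 6.91, 6.81, 7.06 and 7.85. Rny1, a Y RNA gene, was covered with folds of 7.56, 8.44, 10.4, 10.4 and 7.12. Terc, the template RNA of telomerase, was covered with folds of 5.12, 6.43, 10.9, 11.1 and 6.37. Scarna2, a guide RNA of Cajal bodies, had folds of 6.83, 10.4, 15.0, 16.0 and 7.71. These 5 genes were picked after their values were seen, for their known roles. Among lncRNA starts, picked in the same way, the Firre window lay in a region with folds of 12.0, 18.2, 13.5, 18.3 and 9.51, and the Dancr window in 1 with 14.1, 19.7, 19.3, 21.8 and 10.04. Firre is a lncRNA gene of the X chromosome known for its many CTCF sites. Malat1, an abundant nuclear lncRNA, had a start in a region of low rank, with folds of 5.14, 6.03, 6.29, 6.73 and 3.63.

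MicroRNA hairpins were overlapped by 11 members (0.223%, 0.111 to 0.398), which covered 13 of the 1005 hairpins in the RefSeq table, against 1 region of 4 lists (0.0210%), 10 of 3 lists (0.0954%, 0.0457 to 0.175), 22 of 2 lists (0.0437%) and 14 of 1 list (0.0272%). The intervals of 5 and 3 lists overlap. The mature forms of the best known of these are given because they carry the hairpins' identity. Capitals mark the seed, bases 2 to 8. miR-132 and miR-212 come from a single region and share their seed.
mmu-let-7i-5p: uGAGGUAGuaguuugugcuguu
mmu-miR-132-3p: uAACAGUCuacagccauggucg
mmu-miR-212-3p: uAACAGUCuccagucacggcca
mmu-miR-203-3p: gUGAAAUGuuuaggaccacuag

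The let-7i region, chr10:122984999-122986789, had folds of 8.20, 9.85, 7.83, 11.2 and 9.11. let-7 microRNAs are known to restrain growth genes. The miR-132 and miR-212 region, chr11:75172959-75173858, was weak in every list, with folds of 4.84, 5.26, 4.59, 4.62 and 4.05. The miR-203 region, chr12:112130027-112131305, had folds of 7.19, 7.73, 7.23, 6.43 and 7.01. miR-203 is known from epithelia, where it limits progenitor growth. Other members ended 76 bp from the Mir193a hairpin, 176 bp from Mir210, which is induced by low oxygen, and 965 bp from Mir17 of the oncogenic miR-17 cluster.

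Fold enrichment is the authors' value per peak, and a region takes its highest peak in each list. It goes with the rule, because stronger peaks are more often found again, so it is given as a description. Member medians were 8.74, 9.93, 9.31, 10.5 and 6.70, against 6.10, 7.13, 6.89, 7.98 and 5.62 for all peaks of each list. Distal regions of 4 lists had medians of 6.83, 7.63, 7.03, 8.72 and 5.73. Gene-end regions of all 5 lists had 10.3, 12.2, 12.3, 13.6 and 7.61. Members thus stood between the less widely held distal regions and the gene ends in each list. Members at a start window had medians of 9.53, 10.99, 10.7, 12.0 and 7.12, and members away from every listed start and gene end 8.53, 9.64, 8.89, 10.1 and 6.48. The latter also exceeded regions of 4 lists in each list.

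**Figure D2:**
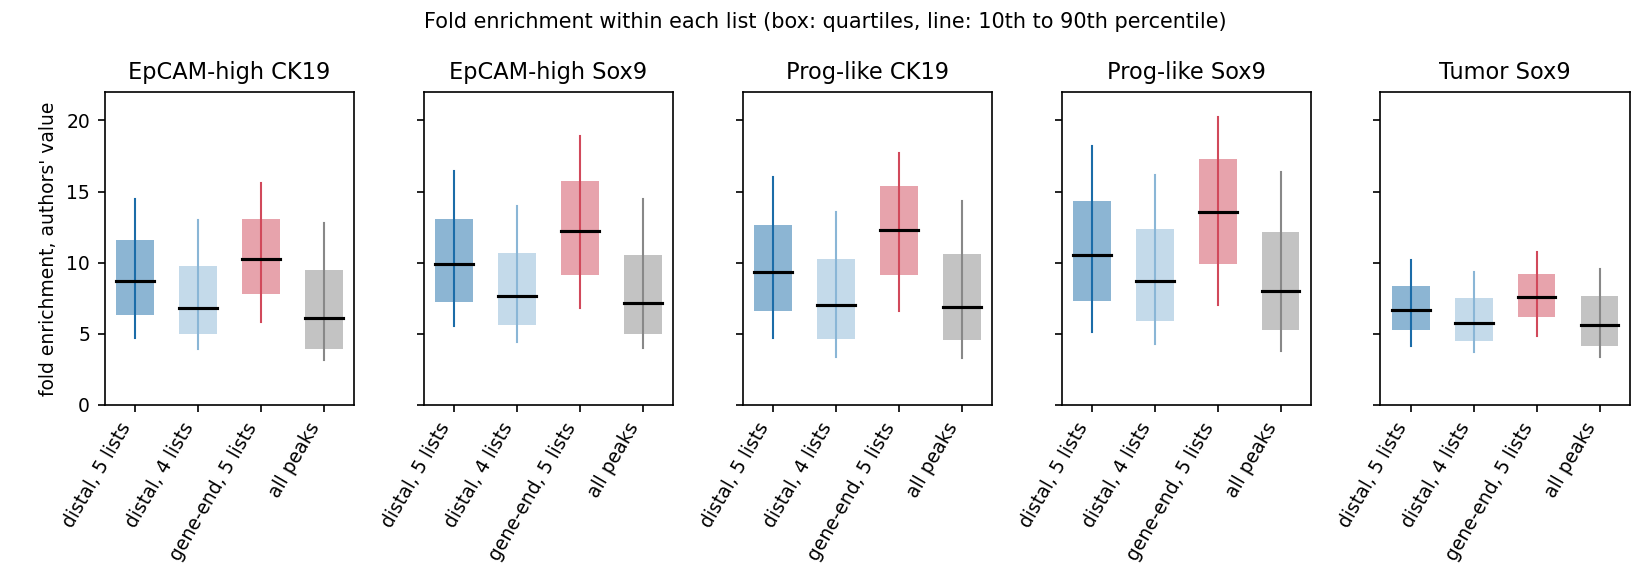
Fold enrichment (authors' value, vertical axis) within each of the 5 lists, for distal regions of 5 lists, distal regions of 4 lists, gene-end regions of 5 lists and all peaks of the list. Boxes span the quartiles, black lines are medians and thin lines run from the 10th to the 90th percentile; the gene-end medians are the highest in each panel.

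Few members were strong everywhere. As a percentile within each list, the median member stood at 70.3, 71.2, 67.4, 67.0 and 63.7. Only 169 members (3.42%, 2.93 to 3.96) were in the top 10% of fold in all 5 lists, against 9.45% of gene-end regions of all 5 lists, and 270 (5.46%) were below the list median in all 5. The median over members of the lowest of the 5 percentiles was 45.0, with 56.6 at start windows and 41.0 away from starts and gene ends. The weakest list was Tumor Sox9 for 1658 members (33.5%), more often than any other list, and Prog-like Sox9 for 1060 (21.4%). The Tumor Sox9 list is also the shortest.

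The highest folds inside and between genes were at regions without a listed start. Inside genes the leading region was chr2:22589371-22590021 in Myo3a, a myosin gene, with folds of 43.7, 46.5, 47.0, 46.2 and 42.4. The next, chr12:78350869-78351174 in Gphn, the gene of the scaffold protein gephyrin, was 306 bp wide with folds of 33.9, 30.2, 37.4, 43.0 and 25.4. Between genes chr8:19784460-19785216 had folds of 43.7, 52.2, 47.2, 47.9 and 29.5, and chr1:24612371-24613442 had 37.3, 49.5, 41.5, 43.3 and 29.4 with all 5 summits on the same base. These 2 regions overlap the annotated pseudogenes Gm10060 and Gm10222. Pseudogenes were overlapped by 83 members (1.68%, 1.34 to 2.08), against 0.922% of distal regions of 4 lists and 0.550% of gene-end regions of all 5 lists. No list of repeats or of regions of uncertain mapping was used, and the part of such sequence in the highest folds was not tested.

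Fold ranks of members went together within a class of lists more than between classes. A class here is the first part of a list's name, and the labels tie only EpCAM-high to samples. Across the 4942 members Spearman's rank correlation of fold was 0.81 between the EpCAM-high lists and 0.92 between the Prog-like lists. Between EpCAM-high and Prog-like lists it was 0.41 to 0.43. Tumor Sox9 had 0.54 and 0.56 with the EpCAM-high lists and 0.36 with both Prog-like lists. Over the 8547 gene-end regions the corresponding values were 0.87, 0.92, 0.61 to 0.67, 0.68 and 0.64, and 0.57 and 0.56. These are descriptions across regions that share lists, and the between-class values were lower for members than for gene ends in each of the 8 pairs.

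**Figure D3:**
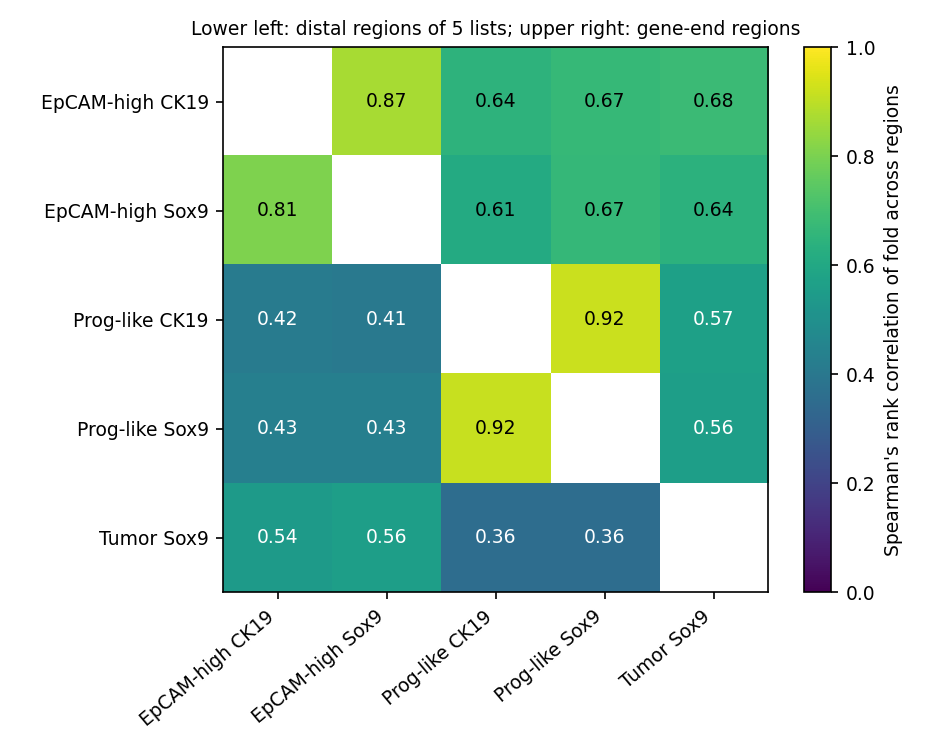
Spearman's rank correlation of fold enrichment between each pair of lists, across the 4942 members (lower left) and across 8547 gene-end regions of all 5 lists (upper right); colour gives the correlation from 0 to 1. Among members the within-class pairs stand at 0.81 and 0.92, and Tumor Sox9 with the Prog-like lists is lowest among members at 0.36.

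Some members ranked high in 1 class and low in another, and these were named for that contrast, so the values are only shown. A region in Klrc1, a natural killer cell receptor gene (chr6:129680012-129680907), had folds of 17.7, 19.2, 3.15, 3.32 and 3.59. It was high in both EpCAM-high lists and near the bottom of the other 3. A region in Ube2e2, a ubiquitin-conjugating enzyme gene (chr14:18678120-18678830), had 14.7, 19.5, 3.19, 3.51 and 12.0, and was low in the Prog-like lists alone. Slc6a19, an amino acid transporter gene, had an internal start in a region of the same shape, with folds of 16.4, 20.7, 4.37, 3.22 and 9.94. In the other direction, a region in Rufy3 (chr5:88595196-88596498) had 3.70, 3.95, 16.3, 14.9 and 4.25. A region in St18, a zinc-finger gene (chr1:6623753-6625155), had 12.7, 16.7, 17.9, 16.8 and 3.37, and was low in Tumor Sox9 alone. A region 9424 bp from Smc2, a condensin gene, had 6.10, 4.02, 4.37, 4.09 and 10.8. Being held by all 5 lists thus went with ranks from the lowest to the highest. No difference between conditions can be read from these ranks, since lists differ in length and each condition has 1 list.

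Members were wider than less widely held regions, which also goes with the rule, since merging joins peaks. The median width was 933 bp (quartiles 675 to 1288), against 713 bp for distal regions of 4 lists, 659 bp for 3, 510 bp for 2 and 254 bp for 1. Single peaks inside members had median widths of 602, 499, 734, 562 and 600 bp, against 439, 349, 520, 399 and 495 bp over all peaks. Wider peaks meet the overlap rule more easily, and its part in this difference was not tested. Members inside genes had a median of 986 bp and those between genes 872.5 bp. At start windows it was 1179.5 bp, close to the 1209 bp of gene-end regions, and away from starts and gene ends 835 bp.

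**Figure D4:**
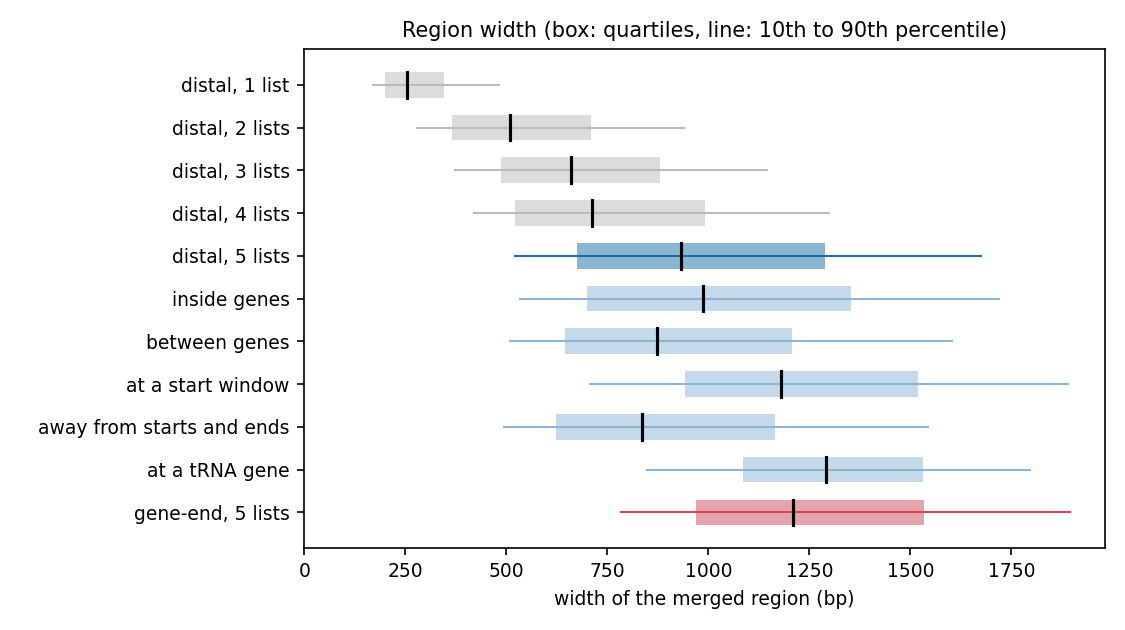
Width of merged regions in bp, for distal regions by the number of lists that hold them, for subsets of the regions of 5 lists (light blue) and for gene-end regions of 5 lists (red). Boxes span the quartiles, black lines are medians and thin lines run from the 10th to the 90th percentile; medians run from 254 bp for 1 list to 1290.5 bp at tRNA genes.

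The widest member, chr9:3000084-3038055, spanned 37972 bp, of which 36928 bp were covered by all 5 lists, and lay 297176 bp from the nearest protein-coding gene, Alkbh8. Its folds were high in every list, at 17.6, 18.1, 20.3, 20.2 and 14.9, but its 5 summits were spread over 29813 bp. The part of repeats or uncertain mapping in this width was not tested. Inside genes the widest was a region of 6638 bp in Tmem267, followed by 4233 bp in Gse1, which holds Mir7687, and 3526 bp in Bcor, a transcriptional corepressor gene. The narrowest, chr17:70963665-70963891, was 227 bp wide with folds of 39.5, 45.5, 18.7, 24.4 and 32.8. The next narrowest between genes, of 286 and 297 bp, stood at the 47.0 and 23.4 percentile of fold in their weakest list.

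Peaks of the 5 lists did not always meet at the same bases. In 220 members (4.45%) no base was covered by all 5 lists, and in 1623 (32.8%) at least 50% of the bases were. That share was 55.6% at start windows, 25.7% away from starts and gene ends, and 62.7% at gene ends. The 5 summits lay within 100 bp of each other in 2011 members (40.7%), in 44.0% of members between genes and 37.7% of those inside genes, against 36.6% of gene-end regions. The median summit spread was 133.5 bp. Counted over all members, 781 (15.8%) held more than 1 peak of the same list. The authors' −log10 q was 5 or more in all 5 lists for 4138 members (83.7%).

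Members were spread over all autosomes and the X chromosome. They made up 3.43% of distal regions on chromosome 1 and 5.14% on chromosome 7, the lowest and highest autosomes, and 3.87% on X, while none of the 24 distal regions on Y was a member. The median gap to the next member was 155 kb, against 79.7 kb between gene-end regions of all 5 lists and 192 kb between the distal regions of 4 lists. Gaps under 10 kb made up 388 of 4922 (7.88%), close to the 7.72% for regions of 4 lists. The 3 longest gaps were all on X, at 24.8, 16.0 and 15.3 Mb, and held 43, 73 and 43 protein-coding genes. The median distance to the nearest gene end was 14.8 kb, with 11.7 kb inside genes and 18.4 kb between them, against 21.9 kb for regions of 4 lists. At the limit of the rule, members lay 1001 bp (chr7:6282862-6284165, near Epp13) and 1003 bp (chr7:35234189-35235230, near Wdr88) from a gene end, and regions in Sirpa and Tprgl were left out at 992 bp.

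The densest groups differed in kind. In 45.4 kb beside Abt1 and Btn1a1 on chromosome 13, 6 members included 4 with tRNA genes, and a second group of 5 beside Trim27 included 4 more. In Dlgap1, a gene of a synaptic scaffold protein, 6 members lay in 49.1 kb and held no listed start. In Tex14, 5 members lay in 40.3 kb and 3 of them hold the U3 RNA genes Rnu3b1, Rnu3b3 and Rnu3b4, whose RNA acts in ribosomal RNA processing. The others hold Rnu1a1 and Gm22068, which are also annotated as small nuclear RNA genes.

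Inside genes members lay towards the 5′ end. Among 1788 members in a single gene of at least 20 kb with known strand, 17.4% (15.7 to 19.3) lay in the first 10% of the gene, against 12.4% (10.9 to 14.1) for distal regions of 4 lists and 9.84% for those of 1 list. The median distance from the start was 26.3 kb for members and 43.8 kb for regions of 4 lists. Among the 1065 members away from every listed start and gene end, 9.67% (7.96 to 11.6) lay in the first 10%, and the median distance was 40.1 kb. This set leaves out members near listed starts and also those near ends of non-coding genes, and the sets of 4 lists and 1 list were not reduced in the same way.

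**Figure D5:**
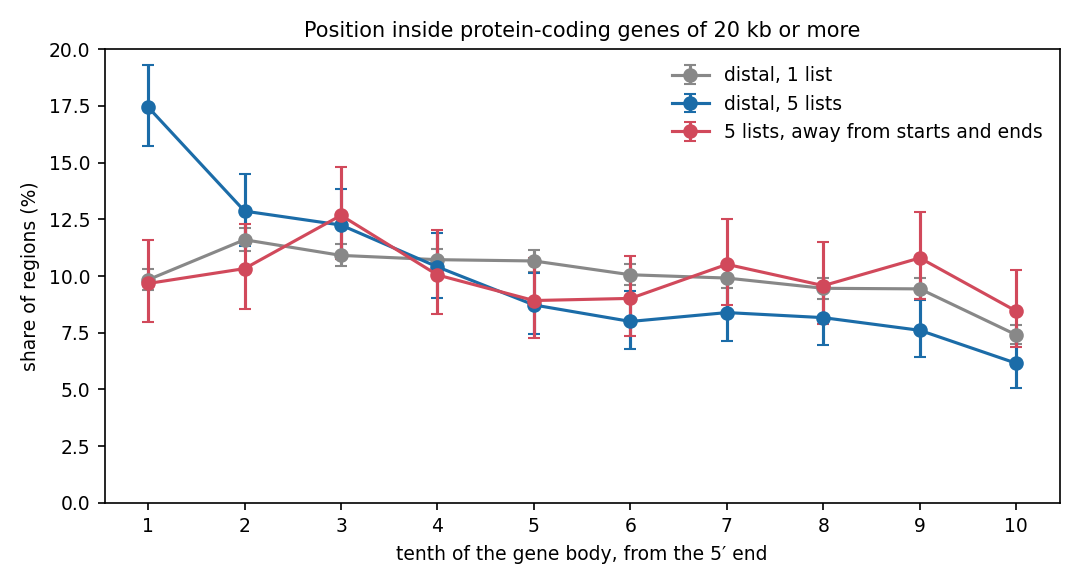
Share of regions, in percent, in each 10% of the gene body from the 5′ end, in protein-coding genes of at least 20 kb, for distal regions of 1 list, for all members and for members away from listed starts and gene ends. Bars are exact 95% intervals; in the first 10% members stand at 17.4% and the other sets at 9.84% and 9.67%.

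At least 1 member lay in the body of 2064 of 21887 protein-coding genes (9.43%), 1680 of them with 1 member and 118 with 3 or more. Long genes were hit more often, with 3.05% of genes under 20 kb and 28.1% of genes of 100 to 500 kb, and the median length was 60.8 kb for genes with a member and 17.2 kb over all genes. Pde4d, a cyclic AMP phosphodiesterase gene of 1302 kb, held 9. Stard13, Nfia, a nuclear factor I transcription factor, and Dlgap1 held 7 each. Arid5b, Vps13d, Maml3, a Notch coactivator gene, and Zbtb20, a zinc-finger repressor gene, held 6 each, and Tex14 and Mbnl1, a splicing regulator gene, 5. Per 100 kb the leaders among genes of at least 20 kb included Osgin1 (14.7), Plxnb2 (11.3), Bmf (9.56) and Kdm6b (9.15). Osgin1 is a gene of the oxidative stress response, Bmf promotes cell death, and Kdm6b removes methyl groups from histone H3.

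Fixed gene lists were read against these shares, 9.43% in the body and 32.7% in the body or within 50 kb. Nuclear receptor genes had members most often, in 8 of 14 bodies (57.1%, 28.9 to 82.3), with 12 members in all and a median gene length of 70.3 kb. Nr3c1, the glucocorticoid receptor, held 3, Pparg and Thrb 2 each, and Rara, Rarb, Rxra, Nr2f2 and Esrrg 1 each. The stronger Pparg region had folds of 13.2, 12.9, 15.0, 13.8 and 6.39. The Rarb region holds an internal start and had folds of 11.3, 13.3, 6.45, 4.68 and 6.27. Of all genes of 20 to 100 kb 13.4% had a member, and of those of 100 to 500 kb 28.1%. The part of length in this count was not tested.

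For each of the 5 cell type lists the interval of the share with a member inside the body included 9.43%. None of 24 hepatocyte genes (0 to 14.2) and none of 20 macrophage and leukocyte genes (0 to 16.8) had a member there. The median gene lengths of these lists were 13.0 and 20.7 kb, and of all genes under 20 kb only 3.05% held a member. Within 50 kb 8 hepatocyte genes had one, among them Hnf4a, Cebpa and Ttr with 2 each and Alb with 1, and 4 leukocyte genes, among them Cx3cr1 with 3 and Ptprc with 1. Of 23 biliary and progenitor genes 3 had a member in the body: Cdh1, the epithelial cadherin (4.85, 4.66, 9.23, 11.5 and 4.17), Pkd2 at an internal start (12.5, 11.5, 12.3, 16.5 and 8.03) and Tead1 (5.72, 7.99, 7.52, 9.89 and 7.37). Epcam, Krt19 and Sox9 had none there. Endothelial Vwf held 2 and Stab2 1. Of 16 mesenchymal genes Zeb1, Zeb2 and Pdgfra had 1 each. The Zeb2 region, at an internal start of this repressor of epithelial genes, had folds of 6.89, 8.36, 1.73, 2.10 and 6.51. Its Prog-like values were at the bottom of their lists. The Zeb1 region went the other way, with folds of 2.93, 8.03, 14.9, 17.0 and 7.19, and ranked lowest in EpCAM-high CK19. The Pdgfra region had 5.60, 8.23, 7.25, 9.70 and 5.75.

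Of the 3 Rb family genes Rb1 held 1 member, 12891 bp from its nearest end, with folds of 12.8, 12.8, 4.59, 5.59 and 7.17, and 2 more lay within 50 kb. Rbl1 and Rbl2 had none within 50 kb. The deleted exons are not named in the labels, so these regions do not check the deletion. Among cell cycle genes, Ccnd3 (cyclin D3) held 2, 1 of them at an internal start with folds of 14.2, 10.4, 13.3, 12.6 and 7.41. Ccnd1 held 1 (5.09, 6.27, 4.27, 4.43 and 4.71) and Myc 1 (3.15, 4.22, 4.51, 5.72 and 2.75), both weak in every list. They lay 1779 and 1032 bp from a gene end, just past the 1 kb limit. No E2F gene had a member in its body.

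Cohesin genes Wapl, Stag1 and Stag2 had 1 member each among 13 genes of chromatin architecture. The Wapl and Stag1 members hold internal starts, and the Stag1 region had folds of 8.07, 11.9, 10.9, 12.8 and 6.57. Of 14 AP-1 and immediate early genes 3 were covered, with 3 members in Bach2 and 1 each in Fosb and Batf. Of 11 stress and hypoxia genes 3 were: Epas1 (15.4, 20.9, 12.8, 14.6 and 7.78), Hif1a at an internal start (10.4, 13.7, 12.0, 15.4 and 5.83) and the cell cycle inhibitor Cdkn1a (5.24, 5.24, 10.4, 7.93 and 4.40). Within 50 kb this list had 9 of 11 genes (81.8%, 48.2 to 97.7) against 32.7%. The interval also lay above 32.7% for 13 of 22 cell cycle, 9 of 14 AP-1, 8 of 11 TGF-beta and 10 of 14 nuclear receptor genes. Neighbouring genes can share members within 50 kb, and Hmox1 of the stress list and Mcm5 of the cell cycle list are close neighbours on chromosome 8. Gene length and gene density were not matched, so these shares are descriptions and not a test of the lists. Hippo genes (7 of 11) and housekeeping genes (9 of 15, 32.3 to 83.7) had shares of similar size. The Hippo kinase gene Lats2 held 1 member (11.2, 13.6, 13.0, 16.1 and 10.1), Tgfb1 and Tgfb2 1 each, and among 15 housekeeping genes Ywhaz 1. The Wapl, Fosb and Tgfb1 regions lay 1024, 1088 and 1797 bp from a gene end. Housekeeping genes are short, with a median of 4.86 kb, so that little of them lies more than 1 kb from an end. None of the lists other than nuclear receptors had a body interval that excluded 9.43%.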

How the data were processed

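Processing started from 5 peak lists of bulk ATAC-seq in the narrowPeak layout, on mm10. Bowtie 1.1.2, MACS2, HOMER and deepTools are named in the submitters' processing notes, with no role or order. Whether libraries were pooled, reads shifted or duplicates removed is not given in the sources used here, and the depth is unknown. The values were made by the authors' peak calling: the deposited fold enrichment of each peak is a linear ratio, its deposited p and q are on a −log10 scale, the deposited score was not used, and the deposited summit is an offset in bp. The lowest −log10 q was 1.30 to 1.32.

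Peaks were merged with a minimum overlap of 1 bp in Python 3.11.15 (pandas 2.3.3, numpy 2.4.6, scipy 1.17.1). Merging and distances were tested on simulated regions. Gene ends and types came from the RefSeq table of GRCm38.p6 (21887 protein-coding genes), which gives no exons. Strand came from the start table (32851 windows of 300 bases, 27025 genes), where one was listed. Regions on unplaced contigs were set aside because the gene table places no genes there. The planned motif scan of regions was not run, as no genome sequence was used here, and motifs were searched in start windows only. Start windows, tRNA, microRNA and pseudogene overlaps were added after seeing the data.

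Members, the 14 gene lists (209 genes) and the rules were chosen with earlier results of these data known. Named were the 5 members per position class with the highest lowest percentile of fold, the 3 widest and narrowest, the members whose percentile in 1 list differed most from the others, genes with most members in total and per 100 kb, up to 4 genes per list and the Rb family, densest groups, longest gaps and the members at the 1 kb limit. Not every item the rule names is printed, and 1 named gene is not reported here. Other regions of list genes were added. Alternatives were 1 shared base, 50% shared bases, −log10 q of 5 or more, equal list length (39644 peaks), 5 kb, ends of all annotated genes, autosomes, and each list not required. No per-sample column was left unused.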

Additional observations from a re-analysis of the deposited data

How the results depend on the processing

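The number of members (4942), their share inside genes (52.9%), median width (933 bp) and median gap (155 kb) have no replicate error, so a change is judged against counting error, or a factor of 1.5 for the number. Of the alternatives, 10 left the number within that factor. It was 1623 with at least 50% of bases shared by all lists, 3283 at equal list length and 7906 without requiring Tumor Sox9, the shortest list. The first of these gave 57.9% inside genes, 947 bp and 726 kb, the second 1001 bp and 254 kb, and the third 843 bp and 93.1 kb. A −log10 q of 5 or more gave 955 bp and 192 kb, and 1 shared base a gap of 167 kb. At 5 kb from gene ends 49.2% lay inside genes and the gap was 216 kb. With the ends of all annotated genes these were 57.2%, 896 bp and 196 kb. Without requiring EpCAM-high CK19 the width and gap were 912 bp and 137 kb, without EpCAM-high Sox9 907 bp and 145 kb, and without Prog-like Sox9 914 bp and 141 kb. Leaving out members within 1 kb of a listed start, chosen after seeing the data, gave 45.5% inside genes, 854.5 bp and 205 kb. That setting also leaves out chromosome 18 and members near lncRNA starts between genes. Fewer or more members change the gap by construction, and the cause of the other changes was not tested. No paired analysis was possible because each condition has 1 peak list without replicate numbers and no result comes from a test. Unknown depth limits every list's weakest peaks.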

Other observations

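The gene table cannot give a distance to genes on unplaced contigs. There 40 of 152 merged regions (26.3%, 19.5 to 34.1) were held by all 5 lists, against 9.73% on assembled chromosomes. Of these 40, 21 lay on Un_JH584304. The median width of the 40 was 1879 bp and the widest measured 7955 bp. No list of repeats or of regions of uncertain mapping was used, and the part of such sequence in this share was not tested.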
